A study of Caenorhabditis elegans with 2 samples.

Results

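The genes described are 7 basic helix-loop-helix (bHLH) transcription factor genes of Caenorhabditis elegans, hlh-11, hlh-30, mxl-1, mxl-2, mxl-3, mml-1 and mdl-1, of 19973 nuclear protein-coding genes in all. They were chosen by name, from factors that bind E-box sequences and act on fat and growth, with the called regions and ranks of these lists already known, so their regions and ranks are given as a description and carry no test. The data are from chromatin immunoprecipitation and sequencing (ChIP-seq) of the nuclear hormone receptor NHR-76 in whole L4 larvae, the last larval stage, of mixed sex. The animals were of strain OP203, which carries the unc-119(ed3) allele and the insertion wgIs203, the source of NHR-76 tagged with eGFP, and 2 biological replicates made up the only group. The tagged protein came from an inserted transgene, DNA from all tissues was mixed, and no untagged animals were used here, so no region can be assigned to a tissue and no value is set against a control. Each of the 4 region lists on the ce11 build (WBcel235) was read over a window from 2000 bp upstream of each gene's 5′ end to its 3′ end. The first list holds the 319 regions called with the irreproducible discovery rate (IDR), a method that retains regions with like ranks in both replicates, and the others are the pooled list of 13052 regions and the replicate lists of 26700 and 24791 regions, which hold peaks and background. Regions were ranked within a list by the deposited signal value, with 1 the strongest; the mitochondrial regions, 31 in the called list, keep their places in the ranking. The depth behind a region is unknown, since no read counts were used.

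bHLH factors bind DNA as dimers at E-boxes, short sequences of the form CANNTG. In the Max network of the worm, MXL-1 is the Max-like partner of the Mad-like repressor MDL-1, and MXL-2 is the Mlx-like partner of MML-1, which resembles the glucose-responsive Mondo factors of mammals. HLH-30, the orthologue of mammalian TFEB, activates autophagy and lysosomal lipid breakdown in starved animals, MXL-3 represses lysosomal lipases in fed animals, and HLH-11, related to mammalian AP-4, represses the fat lipase gene atgl-1. NHR-76 has itself been linked to atgl-1 in the intestine.

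Called regions lay in the windows of mdl-1, hlh-11 and hlh-30, and in none of the windows of mxl-1, mxl-2, mxl-3 and mml-1. Across all nuclear protein-coding genes 350 of 19973 windows held a called region (1.75%), and the share was 1.85% among the 15586 genes with windows as long as the members', from 3088 to 22159 bp. The 3 genes held 4 called regions, 2 of them at mdl-1. Only hlh-11 had its called region near the annotated 5′ end of the gene, while those of mdl-1 lay in an intron and just past the 3′ end, and that of hlh-30 lay deep in an intron. A pooled region lay in the windows of 6 of the 7 genes, against 44.1% of all genes, and the replicates each listed a region at the same 6 genes, against 66.6% of all genes in replicate 1 and 65.1% in replicate 2. The remaining gene, mxl-1, had no region in any of the 4 lists, as had 19.5% of all genes.

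**Figure D1:**
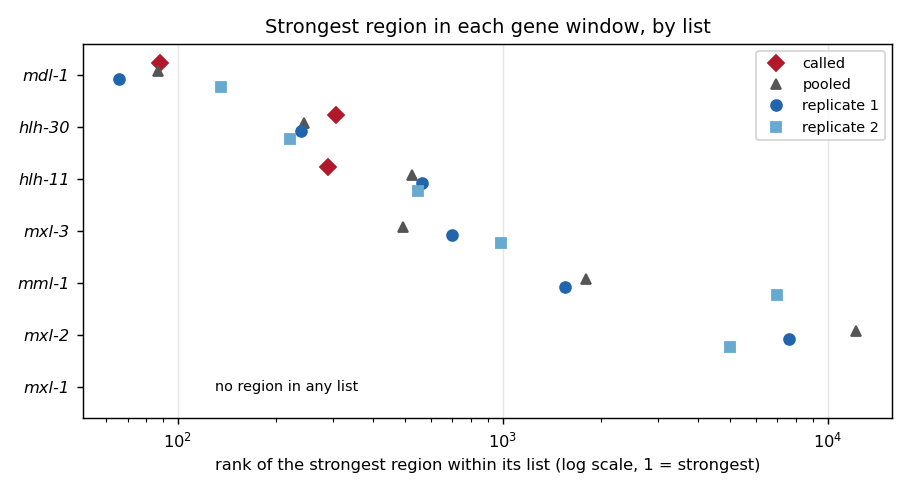
Rank of the strongest region in each gene's window (horizontal axis, log scale, 1 = strongest) within the called, pooled and replicate lists, 1 point per list. The points of mdl-1 lie between 66 and 136, those of hlh-30 between 222 and 306, and mml-1 and mxl-2 have no called point and lie at 1558 or beyond.

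mdl-1 had the strongest regions of the 7 genes. The gene (WBGene00003163, chromosome X, 6742351 to 6743899, plus strand) encodes the Mad-like repressor. Its stronger called region (6743802 to 6744171) ranked 88 of 319 with a signal value of 99.2, and the other (6742879 to 6743248) ranked 124 with a signal value of 87.9. Having 2 or more called regions was shared with 0.0901% of all genes. The summit of the first lay 88 bp past the annotated 3′ end, and the region overlapped the window by 98 bp. That summit lay within R03E9.10, a noncoding RNA gene on the opposite strand, 324 bp from its 5′ end. The summit of the second lay in an intron, 713 bp from the 5′ end of mdl-1. In the pooled list the matching regions ranked 87 and 97, with signal values of 97.2 and 91.2. In replicate 1 they ranked 66 and 71 (signal values 67.3 and 64.6), and in replicate 2 they ranked 136 and 228 (signal values 35.7 and 29.4), so both stood among the 319 strongest regions of each replicate. With only summits inside the window counted, the intronic region was the only called region of mdl-1 and its strongest, and the rank in replicate 2 was 228.

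Further upstream in the window, mdl-1 had 2 weaker pooled regions. The one at the 5′ end (summit 11 bp inside the gene) ranked 935 in the pooled list, 576 in replicate 1 and 9954 in replicate 2. The one 597 bp upstream ranked 1420 in the pooled list, 944 in replicate 1 and 19691 in replicate 2. The replicates thus placed the intronic and 3′ regions alike and the regions at the 5′ end far apart. All 4 regions of each replicate had a summit of the other within 200 bp.

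The sequences at mdl-1 are shown because 3 of its 4 pooled regions held the palindromic E-box CACGTG, which Max-type dimers bind. Capitals mark every CANNTG, here and in the sequences of the other genes, as well as every GAGAGAGA on either strand, and all are given 5′ to 3′ on the plus strand of WBcel235. They cover 200 bp around a summit, except that the first starts just past the end of the gene.
mdl-1 past the 3′ end, chrX:6743900-6744086: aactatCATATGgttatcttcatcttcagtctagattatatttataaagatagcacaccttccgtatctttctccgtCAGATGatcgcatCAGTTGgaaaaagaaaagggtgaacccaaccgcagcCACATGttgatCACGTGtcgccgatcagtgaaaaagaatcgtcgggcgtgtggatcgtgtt
mdl-1 intron, chrX:6742964-6743163: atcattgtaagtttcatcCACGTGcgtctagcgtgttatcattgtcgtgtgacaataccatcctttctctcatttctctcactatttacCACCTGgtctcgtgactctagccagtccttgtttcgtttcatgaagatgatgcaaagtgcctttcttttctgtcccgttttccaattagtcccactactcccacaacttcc
mdl-1 upstream, chrX:6741654-6741853: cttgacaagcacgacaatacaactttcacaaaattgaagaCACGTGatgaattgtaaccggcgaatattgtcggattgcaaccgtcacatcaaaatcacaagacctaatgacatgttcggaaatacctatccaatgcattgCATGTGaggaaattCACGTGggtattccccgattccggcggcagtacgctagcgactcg
The first stretch held 5 E-boxes, among them CACATG and CACGTG close together, with CACGTG 53 bp from the called summit. The intronic stretch held CACGTG, 79 bp from the called summit, and CACCTG. The upstream stretch held CACGTG at 2 places, with CATGTG between them.

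mxl-1, the gene of MDL-1's partner (WBGene00003509, chromosome V, 11244839 to 11245926, plus strand), held no region in its window of 3088 bp in the called, pooled, replicate 1 or replicate 2 list. Its window was shorter than those of 79.0% of genes. The Mad-like and the Max-like gene of the pair therefore stood at opposite ends of the 7 genes. The lists hold only regions above a minimum signal, so an empty window sets no limit on signal there.

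hlh-11 (WBGene00001955, chromosome III, 9619711 to 9626529, plus strand) had 1 called region, at 9619133 to 9619502. It ranked 289 of 319 with a signal value of 60.5, close to the lowest value of the called list, 58.1, and its summit lay 393 bp upstream of the 5′ end. The pooled region there ranked 525 with a signal value of 45.5 and had its summit 71 bp further upstream. Replicate 1 ranked its region there 566, at a signal value of 27.2, and replicate 2 ranked its own 547, at 21.2. Neither replicate placed it among its 319 strongest, although their ranks were near each other. The summit of replicate 1 lay 2 bp from the called summit and that of replicate 2 lay 1 bp from the pooled summit, so the called and pooled positions each followed 1 replicate.

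The remaining regions of hlh-11 were weaker. A pooled region at the internal transcript start of F58A4.7a.1 and others (summit 7 bp from it, 2449 bp into the gene) ranked 3044, with rank 1068 in replicate 2 and no summit within 200 bp in replicate 1. Of 7 regions in replicate 1 and 4 in replicate 2, 2 of each had a summit of the other replicate within 200 bp. The stretch covering both the pooled and the called summit window is shown because they differ in what they hold.
hlh-11 upstream, chrIII:9619147-9619417: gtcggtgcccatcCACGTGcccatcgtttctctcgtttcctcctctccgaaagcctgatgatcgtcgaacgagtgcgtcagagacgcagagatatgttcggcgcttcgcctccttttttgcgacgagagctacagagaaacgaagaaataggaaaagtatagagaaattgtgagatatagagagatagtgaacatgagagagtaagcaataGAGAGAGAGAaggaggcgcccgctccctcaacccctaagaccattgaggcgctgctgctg
The single E-box, CACGTG, lay 84 bp from the pooled summit and fell outside the 200 bp around the called summit, while the GAGAGAGA run fell inside the called window and outside the pooled one.

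hlh-30 had many regions, most of them intronic. It is the longest of the genes (WBGene00020930, chromosome IV, 4014793 to 4034951, minus strand), with 13 annotated transcripts and a window of 22159 bp, longer than that of all but 0.976% of genes. The window held 11 pooled regions, a number reached or passed by 0.12% of all genes, with 10 of the 11 summits in introns. Per kb this was 0.496 pooled regions, against 0.145 over all gene windows and 0.534 over the windows of the 7 genes. The density was higher at mxl-3 (1.26), mdl-1 (1.13) and mxl-2 (0.628), and lower at hlh-11 (0.454), mml-1 (0.303) and mxl-1. Of the 196 genes with windows at least as long as that of hlh-30, 4.08% had a called region. The replicates listed 17 and 18 regions at hlh-30, of which 10 and 11 had a summit of the other within 200 bp.

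The called region of hlh-30 was not its strongest pooled region. The called one (4019893 to 4020262) ranked 306 of 319 with a signal value of 58.9, and its summit was 14873 bp into the gene and 18 bp beyond the small noncoding RNA gene W02C12.4. The nearest annotated gene start of any protein-coding gene was that of W02C12.2, not of hlh-30. At that summit the pooled list had rank 592, and replicate 1 had rank 432. Replicate 2 had rank 11652 at its nearest summit, 58 bp away, and rank 2811 at another, 143 bp away. The strongest pooled region (4018994 to 4019363) ranked 245 with a signal value of 60.4, stood at rank 239 in replicate 1 and 394 in replicate 2, and had no called summit within 200 bp. Among the 217 nuclear regions of pooled rank up to 245 there were 15 without a called summit within 200 bp. The higher-ranked region in the pooled list and in both replicates was thus the one left uncalled. The sources used here do not state how the called list was scored.

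The strongest pooled region lay beside an internal start of hlh-30. Its summit was 135 bp upstream of the 5′ end of transcript W02C12.3f.1, and 4 annotated transcripts start within 200 bp downstream of it. The called summit lay 1034 bp upstream of that same start. Annotated 5′ ends of worm transcripts can be sites of trans-splicing, so they need not mark where transcription starts. Replicate 2 had its own strongest region elsewhere in the gene, in an intron 10513 bp from the 5′ end, at rank 222, where replicate 1 had rank 1679. So hlh-30 had one of the 319 strongest regions of each replicate, but not at the same place. The called and the strongest pooled window are shown, since neither holds CACGTG.
hlh-30 called, chrIV:4019978-4020177: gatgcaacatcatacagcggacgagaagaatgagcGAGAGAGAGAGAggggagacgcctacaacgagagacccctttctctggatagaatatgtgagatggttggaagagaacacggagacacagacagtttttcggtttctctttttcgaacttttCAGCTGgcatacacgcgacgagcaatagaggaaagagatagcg
hlh-30 strongest pooled, chrIV:4019079-4019278: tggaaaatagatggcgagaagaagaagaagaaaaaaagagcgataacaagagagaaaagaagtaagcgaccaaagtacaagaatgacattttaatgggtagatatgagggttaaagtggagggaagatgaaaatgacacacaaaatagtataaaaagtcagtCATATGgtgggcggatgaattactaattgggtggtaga
The called window held a GAGA run and 1 E-box, CAGCTG, and the other held 1 E-box, CATATG.

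Many regions of hlh-30 differed in rank between the replicates. Of the 11 pooled regions 10 had a summit of both replicates within 200 bp, of which 5 ranked higher in replicate 1 and 5 in replicate 2. The region of pooled rank 2328 ranked nearly alike, at 5103 in replicate 1 and 4905 in replicate 2. In replicate 1 the region of pooled rank 1245, 9561 bp into the gene, ranked 22606, and in replicate 2 it ranked 434. At the region of pooled rank 1504, 3644 bp into the gene, replicate 1 had rank 4654 and replicate 2 had rank 543. Their summits lay 178 and 48 bp from the pooled one and were not within 200 bp of each other. Regions ranked higher in replicate 1 included those of pooled rank 703 (12814 bp into the gene), at 1024 in replicate 1 and 7893 in replicate 2, and of pooled rank 3767 (7492 bp), at 4274 in replicate 1 and 11364 in replicate 2. The region just past the 3′ end, of pooled rank 715, ranked 1039 in replicate 1 and 410 in replicate 2.

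mxl-3 (WBGene00003511, chromosome X, 13349639 to 13350804, minus strand), the gene of the fed-state repressor of lysosomal lipases, had no called region. Its strongest pooled region (13349901 to 13350270) ranked 494 with a signal value of 46.3 and had its summit in a coding exon, 718 bp from the 5′ end. It ranked 696 in replicate 1, at a signal value of 25.4, and 985 in replicate 2, at 17.8. The region was above that of hlh-11 in the pooled list and below it in both replicates. Around the 5′ end, a pooled region 281 bp upstream ranked 1622 (7780 in replicate 1), and its region overlapped the noncoding RNA gene C49F8.5. Another, 481 bp upstream, ranked 6351. Replicate 2 had a single region there, of rank 1267, with its summit 410 bp upstream, 71 bp from the farther pooled summit and 129 bp from the nearer one. A region just past the 3′ end, 1346 bp from the 5′ end, ranked 5070 in the pooled list and 1394 in replicate 2, with no summit within 200 bp in replicate 1. The coding-exon region was thus the only one of mxl-3 within the 1000 strongest of the pooled list and of both replicates. All 3 regions of replicate 1 had a replicate 2 summit within 200 bp, as against 2 of 5 the other way.

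mml-1 and mxl-2, whose products act as a Mondo-like and Mlx-like pair, had only weak regions. In mml-1 (WBGene00003378, chromosome III, 7370130 to 7374731, minus strand) the strongest pooled region (7376480 to 7376849) ranked 1809, with its summit 1934 bp upstream, near the far edge of the window. It ranked 1558 in replicate 1 and 6992 in replicate 2. The second pooled region, 823 bp upstream, ranked 6135, with 3161 in replicate 1 and 24653 in replicate 2. Both were stronger by rank in replicate 1. In mxl-2 (WBGene00003510, chromosome III, 186949 to 188131, minus strand) the strongest pooled region (188411 to 188780), 465 bp upstream, ranked 12202 of 13052. There replicate 2 had rank 4994 and replicate 1 had no summit within 200 bp, and its own strongest region, at rank 7633, lay in an intron 343 bp from the 5′ end. No replicate region of mxl-2 was matched in the other replicate. The mml-1 window is shown because it was the only one among the pooled regions of the 7 genes to hold the extended element GTCACGTG, read on the minus strand.
mml-1 upstream, chrIII:7376565-7376764: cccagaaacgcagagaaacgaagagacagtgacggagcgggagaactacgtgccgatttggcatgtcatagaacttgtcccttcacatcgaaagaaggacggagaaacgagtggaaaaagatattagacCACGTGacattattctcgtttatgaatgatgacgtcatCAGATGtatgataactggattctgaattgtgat
It held CACGTG, 32 bp from the summit, and CAGATG.

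**Figure D2:**
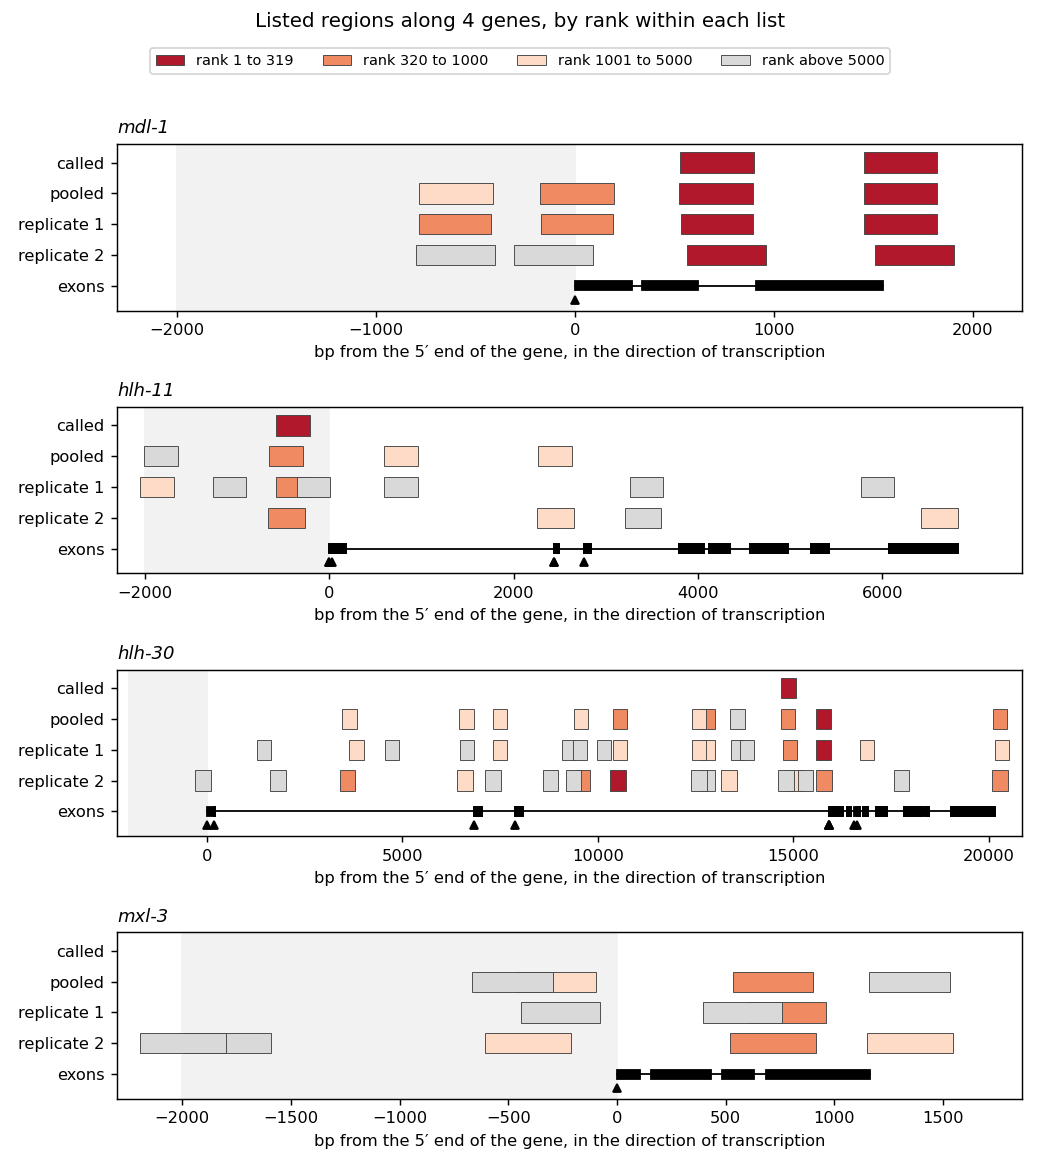
Listed regions along mdl-1, hlh-11, hlh-30 and mxl-3 (horizontal axis, bp from the gene's 5′ end in the direction of transcription), in rows for each list above the exons of all transcripts, with triangles at annotated transcript starts, colour for the rank and grey shading for the 2000 bp upstream. The called regions of mdl-1 lie 713 and 1636 bp from the 5′ end, that of hlh-11 lies 393 bp upstream, and that of hlh-30 lies 14873 bp inside the gene next to an uncalled pooled region of rank 245.

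By rank of the strongest region, the order of the genes was partly shared by the lists. mdl-1 came first and hlh-30 second in the pooled list and in both replicates. hlh-11 and mxl-3 followed, in that order in both replicates and the other way round in the pooled list. mml-1 came before mxl-2 in replicate 1 and after it in replicate 2, so their order lay within the spread of the replicates. In the called list the order was mdl-1, hlh-11 and hlh-30.

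Set beside all genes, the strongest pooled region of mdl-1, at rank 87, was matched or exceeded in 0.391% of gene windows. The share was 1.4% at the rank of hlh-30, 2.77% at that of mxl-3 and 2.94% at that of hlh-11. It was 9.44% at the rank of mml-1 and 42.3% at that of mxl-2, near the 44.1% of genes with any pooled region. The 319 strongest regions of replicate 1 and of replicate 2 each reached mdl-1 and hlh-30 and no other of the 7 genes, against 1.83% of all genes for either replicate and 1.14% for both. The 1000 strongest reached hlh-11, hlh-30, mxl-3 and mdl-1 in both replicates, against 2.75% of all genes. Longer windows hold more regions, and these shares make no allowance for length.

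**Figure D3:**
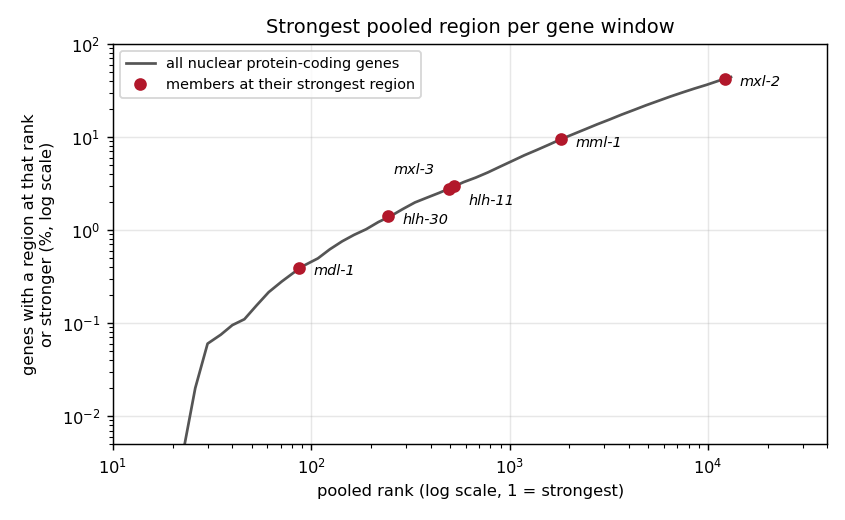
Percentage of nuclear protein-coding genes with a pooled region at a given rank or stronger in the window (vertical axis, log scale) against that rank (horizontal axis, log scale), with red points for 6 of the 7 genes at their strongest region. mdl-1 stands at 0.391% and mxl-2 at 42.3%, and mxl-1 has no point because its window held no region.

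The regions were also described by place, sequence and matching between replicates. In this set hlh-30 supplied 11 of the 27 pooled regions and mxl-1 none. Of the 27 regions, 10 were among the 1000 strongest of the 13052 pooled regions. The genes were chosen with ranks known, and the shares given here make no allowance for rank. Of the 27, 12 had the summit in an intron, 9 upstream, 3 in an exon and 3 past the 3′ end. Their 200 bp summit windows had a median GC content of 42.0%, against 32.5% for all nuclear pooled regions. On average 21.3% of the bases of a region were masked as repeats in the reference, against 42.2% for all nuclear pooled regions. At mxl-2 the values were otherwise, with a GC content of 33.5% and 32.5% and with 58.9% and 54.6% of bases masked in its 2 pooled regions. All nuclear called regions had a median GC content of 42.0% and 27.3% of bases masked. Of the 4 called regions, 2 overlapped a gene annotated as neither protein-coding nor piRNA, against 17.7% of all nuclear called regions. Both of those genes, at mdl-1 and hlh-30, were noncoding RNA genes. In replicate 1, 55.3% of the 38 regions had a replicate 2 summit within 200 bp, against 27.3% of all nuclear regions of that replicate, and in replicate 2, 61.8% of 34 did, against 29.5%. Regions of 1 gene share their neighbourhood and some overlap, so these shares describe the loci and are not counts of independent sites.

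E-boxes, the sequences these factors bind, were under about as large a share of the pooled regions as in the whole pooled list. In the 200 bp around summits, CACGTG and CAGCTG were under a larger share than in the whole pooled list. Motifs were searched on both strands in the 200 bp around each summit. Among the 27 pooled summit windows, 15 held a CANNTG (55.6%), against 49.7% of all nuclear pooled windows of the same 200 bp. CACGTG was in 5 of them (18.5%), 3 at mdl-1 and 1 each at hlh-11 and mml-1, against 4.1% of all. CAGCTG was also in 5, at hlh-11 and hlh-30, against 3.43% of all, and CATGTG was in 3 (11.1%), against 7.12%. Among the 4 called windows, CACGTG was in both of mdl-1, against 46 of the 288 nuclear called windows, and GAGAGAGA was in those of hlh-11 and hlh-30, against 13.2%. Each of these E-box forms is also counted as a CANNTG. The median GC content was 42.0% in the 27 windows and 32.5% in all pooled windows. Of the 27 regions, 10 were among the 1000 strongest of the pooled list. The part of GC content and of rank in the motif shares was not tested.

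The nuclear receptor element AGGTCA and its variants were found under few of the regions. AGGTCA was in 3 of the 27 pooled windows (11.1%), all at hlh-30, against 4.59% of all, and AAGTCA was in 2 (7.41%), at hlh-30 and mml-1, against 8.78%. The longer AAGGTCA, which holds AGGTCA, was in none, against 1.54%. None of the 3 was in any of the 4 called windows, whereas AGGTCA was in 6.94% of all nuclear called windows, AAGTCA was in 10.8% and AAGGTCA was in 3.82%. The absence of these letters in a window of 200 bp says nothing about how the receptor was recovered there.

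Genes of the pathways on which the 7 factors act were read over the same windows, from 6 lists of genes picked by name. The lists were chosen with earlier results of these data known, so their counts are a description and carry no test. Of 27 autophagy genes, targets of HLH-30 among them, 4 had a called region, against 1.75% of all genes. They were epg-9 (rank 40, in an intron), lgg-1 (ranks 260 and 286), lgg-2 (rank 253, 342 bp upstream) and rab-7 (rank 215, 800 bp upstream). lgg-1 and lgg-2 encode the worm's ubiquitin-like proteins of the autophagosome membrane, epg-9 encodes a partner in the kinase complex that starts autophagy, and rab-7 encodes a GTPase of late endosomes. In both replicates, 3 of the 27 genes had one of the 319 strongest regions. The summit at rab-7 lay closer to the 5′ end of W03C9.5.

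Of 17 genes of lysosomal lipases, cathepsins and other lysosomal proteins, 1 had a called region, lipl-2 (rank 163, 1479 bp upstream), whose summit lay closer to the 5′ end of ztf-7. Of 20 V-ATPase genes, which encode the proton pump of the lysosome, 1 did, vha-8 (rank 176, 434 bp upstream, closer to C17H12.2). None of 18 genes of TOR and energy sensing did, and of all genes 1.75% did. A pooled region was in the windows of 15 of these 18 genes, of 18 of the 20 V-ATPase genes, of 20 of the 27 autophagy genes and of 9 of the 17 lysosomal genes, against 44.1% of all genes. The median window was 7631 bp for TOR and energy sensing, 3854 bp for V-ATPase genes, 4728 bp for autophagy genes and 4016 bp for lysosomal genes, against 4027 bp for all genes. Of 32 other bHLH genes, 13 had a pooled region in the window (40.6%), below the share of all genes, with a median window of 3567 bp. A called region was at 2 of the 32 (6.25%, against 1.75% of all genes). They were hif-1, the hypoxia-inducible factor (rank 103, 1962 bp upstream), and hlh-33 (rank 157, past the 3′ end and closer to ddp-1). In the window of hif-1 the strongest rank was 68 in replicate 1 and 2176 in replicate 2. The median rank of the strongest pooled region, over genes with one, was 509.5 for the 7 factors, 3060.5 for autophagy genes, 3505 for lysosomal genes, 1767.5 for V-ATPase genes, 5431 for TOR and energy sensing, 8470 for other bHLH genes and 4904 for all genes.

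Of 18 genes of fat enzymes and regulators, 2 had a called region (11.1%, against 1.75% of all genes), nhr-76 and atgl-1. A pooled region was in the windows of 12 of the 18 (66.7%, against 44.1% of all genes), with a median window of 5286 bp, against 4027 bp. The median strongest pooled rank was 1031, against 4904 for all genes. At atgl-1, the lipase gene that HLH-11 represses, the called region ranked 193 with its summit 1812 bp upstream, and the strongest ranks in the window were 259 in replicate 1 and 1194 in replicate 2. nhr-76 had called regions of ranks 25 and 119, but the strain also carries nhr-76 in its transgene, and regions from the 2 copies cannot be told apart.

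**Figure D4:**
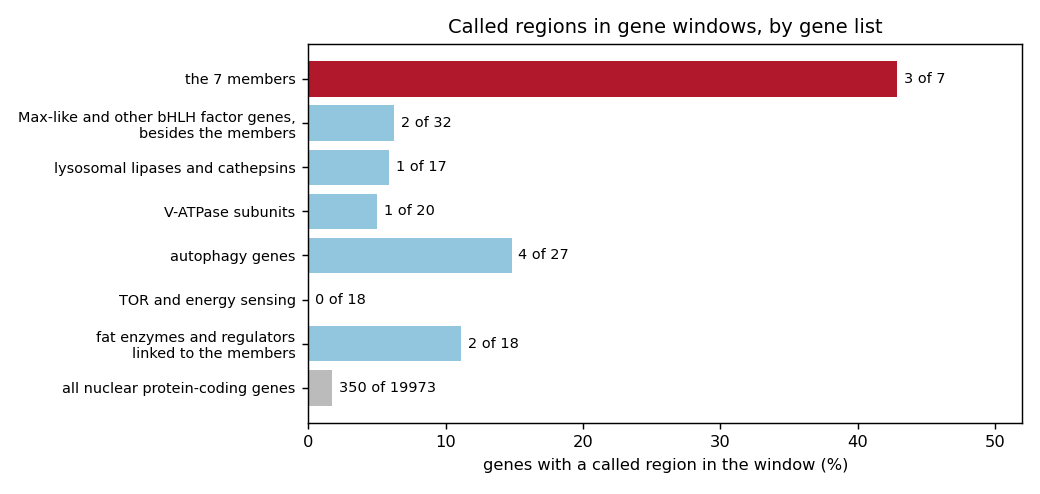
Percentage of genes with a called region in the window (horizontal axis) for the 7 factors, for 6 lists of related genes and for all nuclear protein-coding genes, with counts beside the bars. The 7 factors stand at 3 of 7, the autophagy genes at 4 of 27 and all genes at 350 of 19973. The 7 factors and the 6 lists were chosen with earlier results of these data known.

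In the called list, the regions of these genes stood next to regions of other loci with nearly the same signal value. The stronger region of mdl-1 lay between one shared by cls-2 and R107.5 (rank 87, signal value 101) and one at F20B6.9 (rank 89). That of hlh-11 lay between one shared by T18D3.6 and T18D3.9 (rank 288) and one shared by wts-1 and T20F10.2 (rank 290), and that of hlh-30 between one shared by Y57A10A.13 and Y57A10A.14 (rank 305) and one at mak-1 (rank 307). The likeness is in rank alone, over the 319 called regions. None of the called regions of mdl-1, hlh-11 and hlh-30 lay in the window of another protein-coding gene.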

How the data were processed

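ChIP-seq of eGFP-tagged NHR-76 was read from the deposited region lists of 2 samples, biological replicates per the labels, which form 1 group, so no comparison between groups was made. Per the labels' descriptions, the authors made each replicate list (peaks and background) from that replicate's ce11 alignment and a further file, the pooled list from both alignments, and the called list by IDR from the pooled and replicate lists. Column 7 of each list holds the authors' signal value, a score with no stated scale, and column 10 the deposited summit offset; both are the authors' own. Caller, aligner and thresholds: not given in the sources used here. Scores were ranked only within a list, so lists of different length are not compared by score. The 4 ce10 lists were not used.

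Genes were taken from the Ensembl release 115 annotation and sequences from the RefSeq copy of WBcel235, and 0 regions passed a chromosome's end. A region belonged to a gene when at least 1 bp overlapped its window, and regions matched when summits lay within 200 bp, the strongest being taken where several did. Genes named outside the 7 were those of the 6 lists with a called region, and the neighbours in rank. Genes whose 5′ end was nearest to a called summit, and noncoding RNA genes at regions of the 7, were named as well. The members and lists were chosen with earlier results of these data known. The counting steps, in python 3.11.15 with pandas 2.3.3 and numpy 2.4.6, were checked on simulated data with planted regions. No read counts were used, so depth and counting error are unknown.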

Additional observations from a re-analysis of the deposited data

How the results depend on the processing

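With windows reaching 1000 or 5000 bp upstream, or with the summit or most of the region required inside the window, the called genes remained hlh-11, hlh-30 and mdl-1, with 3 to 5 called regions against 1.47% to 2.61% of all genes. In promoter windows alone, reaching 1000 bp before and 200 bp after the 5′ end, 1 gene (hlh-11) had a called region, 1 region in all, against 1.07% of genes, and 7 pooled regions remained. Giving each region only to the nearest 5′ end left hlh-11 and mdl-1, against 1.06% of genes. Among the stronger part of the called list, by signal value above its median, 1 gene (mdl-1) held 2 regions, against 0.786% of genes. With either replicate left out and the 319 strongest regions of the other in place of the called list, hlh-30 and mdl-1 held 3 regions, against 1.83% of genes, and hlh-11 held none. Among the strongest regions of both replicates, 4 genes were reached with 1000 or 5000 regions taken and 1 (mdl-1) with 319 and summits within 200 bp. The share of called windows with a CANNTG was 66.0% in 200 bp, 47.6% in 100 bp and 61.7% in promoter regions. Of 18 ranks, 9 moved in promoter windows by more than the standard deviation of the gene's 2 replicate ranks, and 2 were lost. Promoter windows leave out regions more than 200 bp inside a gene or more than 1000 bp upstream. No paired analysis was possible because there was 1 group. The unknown depth and the minimum signal of each list limit what an empty window shows.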

Other observations

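A further called region lay outside the window of mdl-1, 4513 bp upstream of its 5′ end, at rank 149 with a signal value of 80.9. Between 2000 and 5000 bp upstream of mdl-1 the strongest region ranked 370 in replicate 1 and 80 in replicate 2. With a window reaching 5000 bp upstream, the strongest region of mxl-3 ranked 464 in the pooled list, 221 in replicate 1 and 402 in replicate 2, and the gene still had no called region.

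The signal values of the called list were not those of the pooled list. Of the 288 nuclear called regions, 287 had a pooled summit within 200 bp, and 20 of them had a signal value within 1% of the pooled one. The ratio of called to pooled signal had a median of 1.06 and ran from 0.8 to 1.84. Of the 465 nuclear regions of pooled rank up to 494, the rank of the strongest mxl-3 region, 190 had no called summit within 200 bp.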
